A study of Sus scrofa with 4 samples.

Results

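The peaks described here are the places where a peak of histone H4 lysine 12 lactylation (H4K12la) was called in both of the sow livers profiled. They were chosen by position alone: a peak of the high bile acid list on chromosomes 1 to 18 was a member if it overlapped a peak of the low bile acid list by at least 1 bp. The rule found 206 of the 28222 high-list peaks on these chromosomes (0.730%; exact 95% interval 0.634 to 0.836%). They overlapped 207 of the 5730 low-list peaks (3.61%; 3.14 to 4.13%) and formed 207 pairs, because 1 high-list peak at FAM46C overlapped 2 low-list peaks. Over all chromosomes the lists hold 28283 and 5735 peaks.

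Lactylation is the attachment of a lactyl group, made from lactate, to a lysine. On histone tails it is one of several acyl marks, and it has been mapped mostly at promoters and other active regulatory sequence. In liver, lactate is both produced by glycolysis and taken up for gluconeogenesis, so the amount of substrate for the mark can change with metabolism.

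Livers of sows in late gestation supplied the chromatin. The sows formed 2 groups by their bile acids, low, meaning normal, and high, and the samples are labelled as hepatocytes and as female. Each group had 1 library immunoprecipitated with an antibody against H4K12la and 1 input library. Neither how many sows stood behind a library nor any breed, age or treatment is given in the sources used here, and no genetic change is named for either group. With 1 immunoprecipitated library per group there are no replicates, so nothing below is a test between the groups. Positions refer to the Sscrofa11.1 assembly. The folds printed here are the authors' ratios of summit signal to the caller's local expectation, and q is likewise theirs. Fragment numbers at the summits were recovered from the authors' folds and p-values. The smallest expected number over the narrowest peak width was 6.71 fragments per kb in the high library and 7.37 in the low library. These values were taken as the genome-wide background and were not measured from reads. Intervals of fragment numbers and of shares cover counting error only.

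Most shared peaks were small and rested on few fragments. On the high side their median width was 404 bp (lowest 295, highest 905), against 355 bp over all high-list peaks, and 57 of 206 (27.7%) were 500 bp or wider, against 15.2% of the list. On the low side the median was 377 bp (lowest 299, highest 943), against 338 bp, and 34 of 207 (16.4%) were that wide, against 8.62%. Width enters the rule, since a wider peak has more room to overlap, so these values only describe the members. The number of fragments at the summit had a median of 9 in the high liver (lowest 6, highest 239) and of 10 in the low liver (lowest 7, highest 321). These medians equal those of the full lists, which were 9 and 10.

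The paired peaks covered 251 bp in common at the median, with quartiles of 149 and 325.5 bp, and 1 peak lay wholly inside the other in 41 pairs. In 17 pairs the overlap was under 50 bp. The smallest overlaps were 5 bp inside KCNIP3, with folds of 3.45 (high) and 2.07 (low), and 7 bp inside GULO, with 5.02 and 2.94. Just outside the rule, the peaks inside HAAO missed each other by 4 bp, with folds of 3.77 and 3.80, and those near SLC17A9 by 5 bp, with 2.43 and 2.45. In all, 30 high-list peaks had no overlap but lay under 100 bp from a low-list peak.

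The shared peaks gathered at gene ends. A gene end here is a stretch of 1 kb on either side of the first or last annotated base, and the annotation gives no strand, so the start of a gene could not be told from its end. On the high side 65 of 206 summits (31.6%; 25.3 to 38.4%) lay at a gene end, against 11.4% of all high-list peaks. On the low side 64 of 207 (30.9%; 24.7 to 37.7%) did, against 10.4%. Deeper inside genes lay 83 high-side summits (40.3%), against 56.5% of the list, and outside genes 58 (28.2%), against 32.1%. Only 4 summits on either side (1.94% and 1.93%) were more than 50 kb from any gene, against 9.89% and 10.2% of the lists.

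Wide peaks lay at gene ends more often in the full lists too, so the share was also set beside that of peaks of like width, a comparison chosen after the data were seen. Among high-list peaks under 350 bp, 17 of 74 shared peaks (23.0%; 14.0 to 34.2%) were at a gene end, against 9.65% of all peaks of that width. Among those of 600 bp or more, 18 of 36 (50%; 32.9 to 67.1%) were, against 17.7%. In the low list the values were 25 of 78 (32.1%; 21.9 to 43.6%) against 8.95% for the narrowest peaks, and 4 of 12 (33.3%; 9.92 to 65.1%) against 16.4% for the widest. The shared peaks stood above their width class in each of the 4 classes of both lists, although the interval of the widest low-list class held the value of its list. No chance test was made of these differences.

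**Figure D1:**
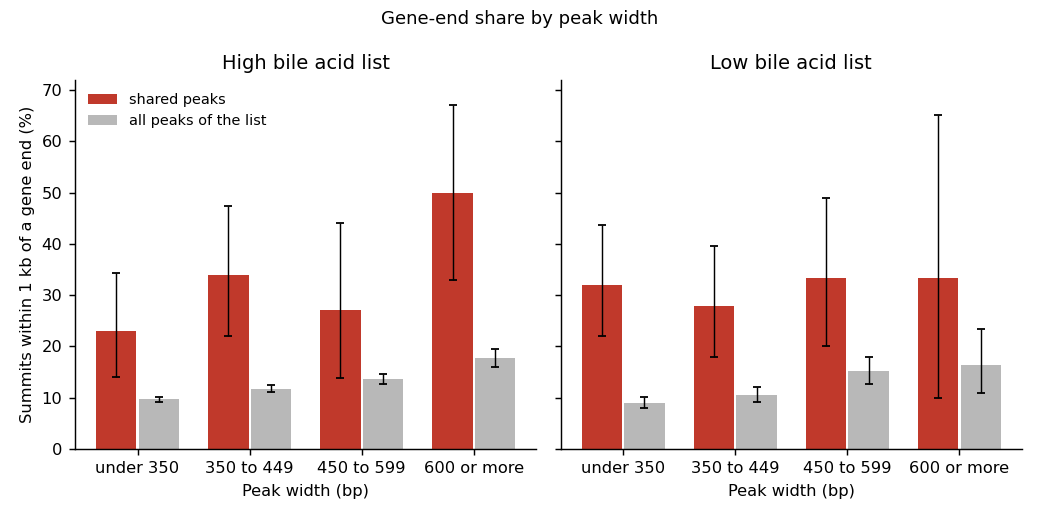
Share of peak summits within 1 kb of a gene end (%) by peak width (bp) for shared peaks (red) and all peaks (grey) of the high (left) and low (right) bile acid list on chromosomes 1 to 18; error bars are exact 95% binomial intervals for counting error. In the high list the shared share runs from 23.0% for the narrowest to 50% for the widest peaks, against 9.65 and 17.7% over all peaks.

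The 65 high-side gene-end peaks lay at ends of 73 annotated genes, of which 59 were coding, 13 were long noncoding RNA genes and 1 was a pseudogene. Ends of 53 coding genes with a symbol were reached by 51 of the peaks. The other 14 lay at ends of noncoding genes or of genes with a provisional name. In 63 of the 207 pairs both summits lay within 1 kb of the ends of the same gene. At 8 gene-end peaks the ends of 2 or more genes met.

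Of the 12 peaks at ends of named coding genes with the highest high-side fold, those most alike in the 2 livers were at CRTC3, MBTPS1 and ALDH5A1. CRTC3 encodes a coactivator of CREB, the transcription factor that responds to cyclic AMP. Its peak (chromosome 7, 53147013 to 53147389) had folds of 3.98 in the high and 3.95 in the low liver, each on 13 fragments (95% interval 6.92 to 22.2), with summits 30 bp apart. MBTPS1, at chromosome 6, 4503967 to 4504299, encodes the site-1 protease, which cleaves SREBP and ATF6. Its folds were 3.87 on 11 fragments and 3.93 on 12. The peak at the end of ALDH5A1 (chromosome 7, 19351602 to 19352269), the succinate semialdehyde dehydrogenase gene, also lay inside GPLD1 and had folds of 3.64 and 3.52 on 13 and 16 fragments. In these 3 pairs the intervals of the folds, which carry the Poisson error of the fragments with the expected number held fixed, overlapped.

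The next 7 of these peaks covered several functions. ALDH1L2, a folate enzyme of mitochondria, had folds of 3.69 (high) and 3.93 (low), and SLC25A46, a protein of the outer mitochondrial membrane, had 3.68 and 3.04. CLTC, the clathrin heavy chain gene, had 3.61 and 3.27, and ADRM1, a ubiquitin receptor of the proteasome, had 3.64 and 3.34. LRRK1, a kinase gene, had 3.58 and 3.46, RPAP3, a cochaperone gene, 3.39 and 2.74, and C15H2orf54 3.69 and 3.10. The high fold was the larger in each of these except ALDH1L2. The high fold chose these peaks, so this order only describes them.

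The last of the 12, STAM and PDLIM2, were those whose folds differed most. STAM, an adaptor of endosomal sorting, had a fold of 4.88 in the high liver (chromosome 10, 43946962 to 43947500; q 0.00368) and 2.63 in the low liver (q 1). These rested on 14 fragments (7.65 to 23.5) and 8 fragments (3.45 to 15.8), and the summits were 347 bp apart. PDLIM2, which encodes a PDZ and LIM domain protein, had 4.34 (chromosome 14, 6834197 to 6835057; q 0.00693) and 2.94 (q 1), on 16 and 11 fragments, with summits 625 bp apart. The fold intervals of the livers overlapped at both genes, at 2.82 to 7.97 (high) and 1.32 to 4.86 (low) for STAM.

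**Figure D2:**
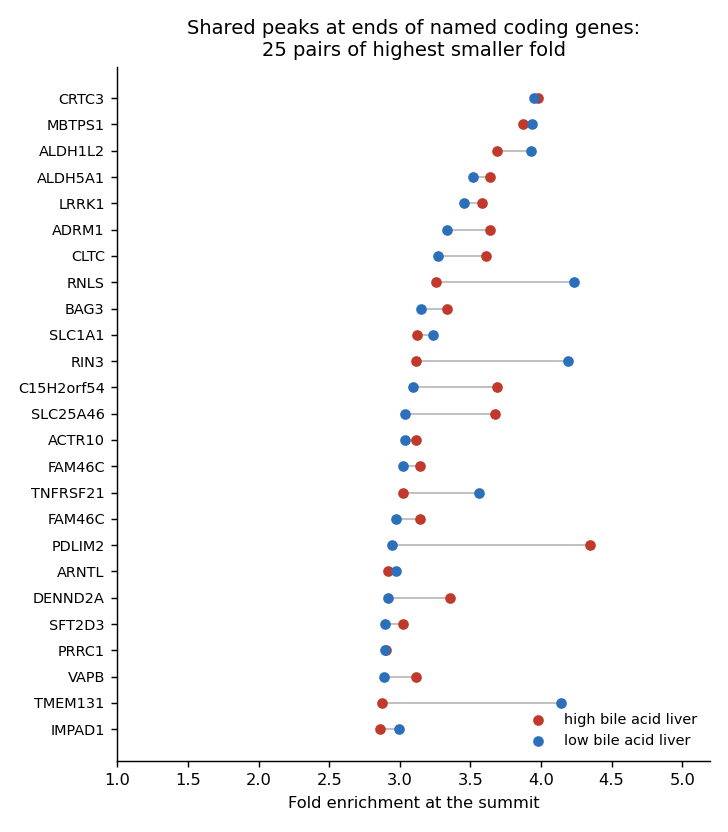
Fold enrichment at the summit (x axis, no unit) in the high (red) and low (blue) bile acid liver for the 25 pairs at ends of named coding genes with the highest smaller fold; each row is 1 pair, each point 1 library, and the grey line joins the livers. CRTC3, at 3.98 and 3.95, is at the top. A gene can hold more than 1 row where 1 high-list peak overlaps 2 low-list peaks, as at FAM46C.

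Several functional groups recurred among the genes at shared peaks. These groups were picked after the members were seen, so their counts only describe, and of all 15706 named coding genes on chromosomes 1 to 18, 1.23% had a shared peak inside or within 10 kb, 0.815% within 1 kb and 2.69% within 50 kb. Of 23 circadian clock genes found in the annotation, 3 had one, and these 3 encode its transcriptional activators. ARNTL encodes BMAL1, and CLOCK and NPAS2 encode its alternative partners. The ARNTL peak (chromosome 2, 46024389 to 46024791) lay 594 bp from a gene end, with folds of 2.92 in the high liver on 13 fragments and 2.97 in the low liver on 9. CLOCK (chromosome 8, 54909105 to 54909781) had folds of 2.56 and 3.39 on 7 and 11 fragments. NPAS2 (chromosome 3, 53490574 to 53490964) had 2.44 and 3.24 on 13 and 11 fragments, and its summits were 46 bp apart. No q was under 0.05 at these genes. The repressor genes PER1, PER2, PER3, CRY1 and CRY2 had no shared peak within 10 kb, although 21 of the 23 clock genes had some high-list peak and 9 some low-list peak in that reach. Of all named coding genes 64.8% had a high-list and 22.7% a low-list peak in that reach.

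Clathrin and its plasma membrane adaptor AP-2, which together form coated pits for endocytosis, had shared peaks at 3 of 8 subunit genes. Within 10 kb, 7 of the 8 had some high-list peak and 3 some low-list peak, against 64.8% and 22.7% of all named coding genes. Besides CLTC at its gene end, AP2A1 carried one 12356 bp inside the gene with folds of 3.12 (high) and 2.499 (low), and AP2B1 one 27606 bp inside with 3.36 and 2.65. Of the 6 PPAR and RXR genes, nuclear receptors of fatty acids and their shared partners, 3 had a shared peak within 10 kb. In the same reach all 6 had some high-list peak and 5 some low-list peak, against the same 64.8% and 22.7%. The PPARA peak lay 1406 bp outside the gene with folds of 3.05 and 3.37 and summits 3 bp apart. RXRA had 3.36 and 3.46 and PPARD 2.47 and 3.46, both deep inside the gene. RXRA is dense in peaks, with 17 high-list and 6 low-list peaks inside its 98.8 kb, and the shared one was 1 of these.

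Liver genes were also found among the other members. HNF4A, which encodes a transcription factor that maintains hepatocyte identity, carried a shared peak inside the gene (chromosome 17, 46815606 to 46815924) with folds of 3.12 (high) and 2.87 (low), each on 10 fragments. That summit lies 882 bp from the end of an overlapping noncoding gene. MIR122, the microRNA most abundant in hepatocytes, had one 4173 bp away with folds of 2.60 and 3.18. At SLC25A15, the mitochondrial ornithine carrier of the urea cycle, the folds were 2.60 and 3.02. FOXO1, a transcription factor restrained by insulin, had one 1454 bp outside the gene with 2.08 and 2.31. The high-side summit there lies inside the noncoding gene LOC102160118, 880 bp from its end. These liver genes were named after their values were seen, apart from HNF4A, which was on a fixed marker list. Of 10 hepatocyte markers HNF4A was the 1 with a shared peak within 10 kb, and ALB, APOA1 and TTR were without. Of 19 markers of other liver cells 0 had one. In that reach 5 of the 10 hepatocyte markers had some high-list peak and 1 some low-list peak. For the 19 other markers the counts were 8 and 5, against 64.8% and 22.7% of all named coding genes. The low list thus left little room for shared peaks at hepatocyte markers, and the 2 marker lists cannot be ranked.

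The lists fixed for the study's own themes were nearly empty among shared peaks. Of 33 bile acid genes only RXRA had a shared peak within 10 kb, and CYP7A1, ABCB11, SLC10A1 and NR1H4, the genes of the main synthetic enzyme, the export pump, the uptake carrier and the bile acid receptor, had none. Of 19 AP-1 family genes 0 had one, JUN included. Of 29 glycolysis and lactate genes 0 had one, and of 18 genes of histone acyl writers and erasers 0 had one. Against 1.23% of all named coding genes, lists this short can say little. High-list peaks of any kind lay within 10 kb of 24 of the 33 bile acid genes, 14 of the 19 AP-1 genes 20 of the 29 glycolysis and lactate genes and 12 of the 18 acyl writers and erasers, against 64.8% of all named coding genes, so these counts are near the background.

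The 83 shared summits deeper inside genes had a median distance of 12261 bp to the nearest gene end, and 15 lay over 50 kb from one. Examples with the larger high fold were DGKB, a diacylglycerol kinase gene (4.03 and 2.68), RAI1, a chromatin regulator (3.98 and 2.25), and GULO. GULO encodes the last enzyme of vitamin C synthesis, and its peak had the highest high-side fold of the members at 5.02 (q 0.00241) on 14 fragments, against 2.94 (q 1) on 10. Only TRIO and LAMA5 had 2 shared peaks within 10 kb. LAMA5, a laminin chain gene, held 1 inside, with folds of 3.68 and 3.24, and the second, at the end of its neighbour ADRM1, lay 42050 bp from the first. Of the 58 summits outside genes, 31 lay within 10 kb of a gene and 4 over 50 kb away.

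Neither liver had the larger folds across the pairs. The median fold was 2.86 in the high liver (quartiles 2.60 and 3.14) and 2.94 in the low liver (2.67 and 3.27). Over all peaks of the lists the medians were 2.90 and 2.98, close to those of the shared peaks. A fold of 4 or more was found in 7 of 206 on the high side (3.40%), against 3.14% of the list, and in 8 of 207 on the low side (3.86%), against 1.38%. The high fold was the larger in 101 pairs and the low fold in 106 (48.8% high; 41.8 to 55.8%). Every listed peak had a p-value of at most 0.00989, mostly on few fragments, which holds the folds of both lists in a like range. This balance therefore only describes the pairs and is no comparison of the livers. The ratio of high to low fold had a median of 0.994, quartiles of 0.832 and 1.104, and a range of 0.516 to 1.86. It was 1.5 or more in 6 pairs, and the low fold was as much larger in 9. By place, the high fold was the larger in 28 of 66 pairs at gene ends, 47 of 83 deeper inside genes and 26 of 58 outside genes.

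**Figure D3:**
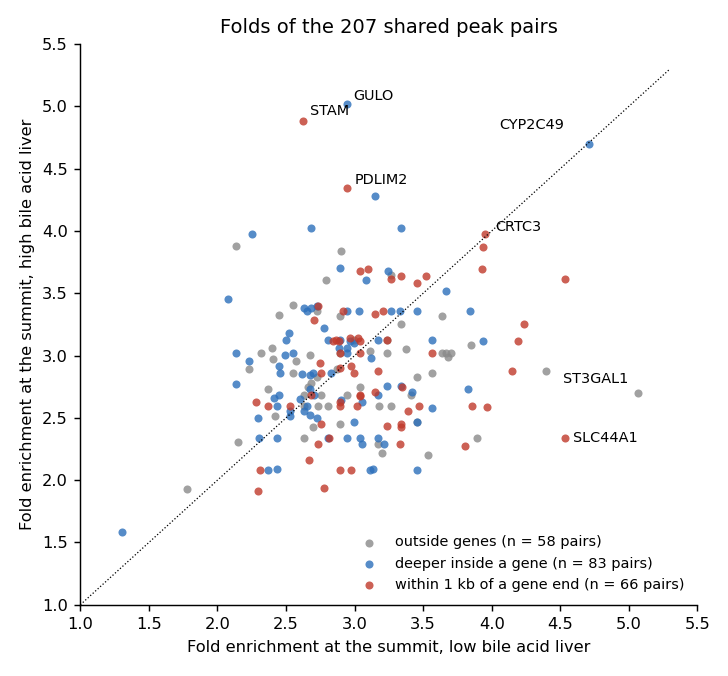
Fold enrichment at the summit in the low (x axis) and high (y axis) bile acid liver for the 207 shared pairs, coloured by the place of the high-side summit; the dotted line marks equal folds and labels give the nearest named coding gene. The cloud lies around the line, with STAM (4.88 and 2.63) and GULO (5.02 and 2.94) above it and SLC44A1 (2.34 and 4.53) and ST3GAL1 (2.70 and 5.07) below.

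The largest ratios were those of STAM (4.88 and 2.63), FAM207A (3.88 and 2.14), RAI1, GULO, KCNIP3 and DGKB, followed by PDLIM2 and by NDST1, a heparan sulfate enzyme gene (3.02 and 2.14). The smallest were at the end of SLC44A1, a choline transporter gene (2.34 and 4.53), and 49217 bp from ST3GAL1, a sialyltransferase gene (2.70 and 5.07). DPP3 (2.27 and 3.80), CTDSPL2 (2.34 and 3.89) and WWP2 (2.08 and 3.46) followed. At SLC44A1 the folds rested on 8 fragments (3.45 to 15.8) in the high and 14 (7.65 to 23.5) in the low liver, and the fold intervals, 1.16 to 4.36 and 2.63 to 7.38, overlapped. Fold intervals overlapped in 206 of the 207 pairs. The exception was the pair near ST3GAL1, at 2.19 to 3.30 in the high and 3.41 to 7.28 in the low liver, and it was singled out among 207 pairs. Across the 207 pairs the folds of the livers correlated weakly (Spearman's rho 0.155), which describes small counts that all passed the same cutoff and is no finding.

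The 10 pairs with the highest smaller fold were chosen by that value, and 1 of them had a q under 0.05 in both livers. First came a pair at chromosome 14, 106525202 to 106525502, with folds of 4.70 (high, q 0.0106) and 4.71 (low, q 0.0420) on 13 and 17 fragments. Its summit lies inside LOC110255181, a coding gene with no symbol, and the nearest named gene is CYP2C49, a cytochrome P450, 46443 bp away. It was the 1 pair with a fold of 4 or more in both. CRTC3, MBTPS1, ALDH1L2, ALDH5A1 and LRRK1 were also among the 10, with a peak inside RHOBTB1 and at the end of an unnamed coding gene (3.61 and 4.53), 1 near the transcription factor gene FOXK1 (3.52 and 3.67), the RXRA peak and 1 inside a noncoding gene 394950 bp from NFE2L3 (3.36 and 3.84). Both folds were 3 or more in 44 pairs and 3.5 or more in 7.

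Few shared peaks passed a q of 0.05. On the high side 14 of 206 (6.80%; 3.77 to 11.14%) did, against 2.13% of the list, and on the low side 5 of 207 (2.42%; 0.789 to 5.55%) did, against 0.209%. On the low side 191 had a q of 1. Those 5 low-side peaks passed on the high side too. Apart from the pair at LOC110255181, they lay outside genes, and their expected numbers were above the upper quartile of the members in both livers. At chromosome 9, 52841725 to 52842044, 31950 bp from ACRV1, 239 fragments stood over 79.8 expected in the high liver and 321 over 133 expected in the low liver, for folds of 2.97 and 2.40. At chromosome 14, 51666256 to 51666591, 9119 bp from DGCR6L, the values were 236 over 102 and 255 over 118, for folds of 2.31 and 2.15. The pair 52065 bp from FOPNL (chromosome 3, 6924995 to 6925296) had 73 over 23.7 and 95 over 24.98, for 2.99 and 3.68. Its nearest gene was LOC110259857, 36765 bp away. The pair 49217 bp from ST3GAL1 had 94 over 34.2 and 27 over 4.41, and its nearest gene was LOC110260216, 1944 bp away. In these pairs outside genes the summits were 2 to 57 bp apart.

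The smallest expected numbers in the lists were 1.98 (high) and 2.20 (low). In 5 pairs both livers had 40 or more fragments, and their nearest named coding genes were ACRV1, DGCR6L, FOPNL, CYB5R1 and ARIH2OS. The CYB5R1 pair lies inside LOC102162336, 29827 bp from CYB5R1. Of all peaks of that depth on these chromosomes, 5 of the 6 low-list and 7 of the 25 high-list peaks were shared. Over all shared peaks an expected number of 4 or more was found in 13 on the high side (6.31%), against 1.50% of the list, and in 16 on the low side (7.73%), against 2.04%. The median expected number was 2.52, against 2.27, on the high side and 2.58, against 2.38, on the low side. The part of this deeper background in the overlap of the lists was not tested. The gene-end share was 32.3% without the 5 deep pairs, and none of these 5 was at a gene end.

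**Figure D4:**
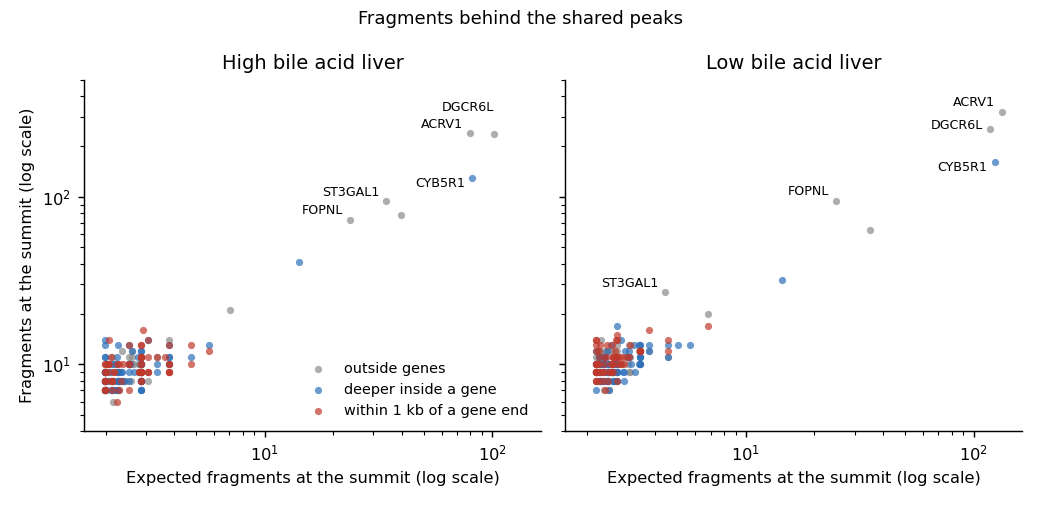
Fragments at the summit against the number expected from the local background (both axes logarithmic, whole fragments) for the shared pairs in the high (left) and low (right) bile acid liver, coloured by place; labels give the nearest named coding gene. Most pairs lie near 9 or 10 fragments over 2.5 expected, and a few reach 239 (high) and 321 (low) at the ACRV1 pair.

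Paired summits often stood apart. Their median distance was 150 bp, with quartiles of 76 and 274 bp and a range of 1 to 699 bp. Summits lay within 50 bp of each other in 37 pairs, within 150 bp in 104 and over 300 bp apart in 44. The narrowest peaks of the lists, 295 and 299 bp wide, set the scale for these distances. The median distance was 135.5 bp for pairs at gene ends, 192 bp deeper inside genes and 133.5 bp outside genes. Offsets fell on either side of 0. Among the genes described above, the summits were 3 bp apart at PPARA, 7 bp at DGKB and 30 bp at CRTC3, and 625 bp apart at PDLIM2.

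**Figure D5:**
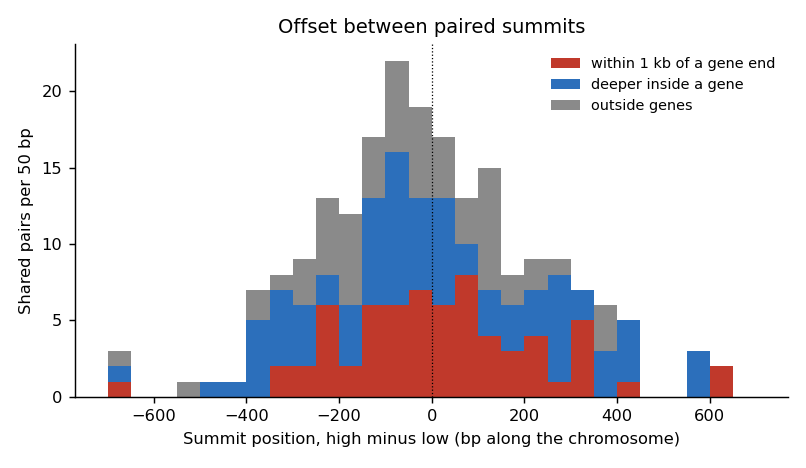
Number of shared pairs per 50 bp of summit offset (x axis, position of the high summit minus that of the low summit in bp), stacked by the place of the high-side summit. Offsets centre near 0 and reach 699 bp.

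By chromosome, the members were most numerous on chromosome 14, with 25 peaks or 1.21% of its high-list peaks (0.787 to 1.79%), and on chromosome 3, with 21 or 0.975% (0.604 to 1.49%). The highest share was on chromosome 17, with 13 peaks or 1.33% (0.707 to 2.26%), and the lowest on chromosome 8, with 5 or 0.411% (0.134 to 0.956%). Each of these intervals except that of chromosome 14 holds the 0.730% of all autosomes. Neighbouring members within 100 kb were found in 6 places. They included 1 near FOXO1 and 1 at SLC25A15 (83003 bp apart). Another 2, 49109 bp apart, had PPARA as the nearest named coding gene, at 1406 and 50915 bp. The farther of these lay 24250 bp from its nearest gene, LOC110260611.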

How the data were processed

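MACS2 2.1.0, Bowtie 1.1.2, Trimmomatic 0.33 and bcl2fastq 2.17 are named, with the builds Sscrofa11.1 and hg38, per the submitters' processing notes. Roles and cutoffs are not given in the sources used here. Per the labels' protocols, chromatin was fixed in formaldehyde (1%) and sonicated for 8 min, and libraries of 250 to 450 bp were made from 10 ng of DNA in 13 PCR cycles. The authors deposited 1 peak list for each immunoprecipitated library, and no source used here says whether the input served as the caller's control. The deposited fold is a ratio, the deposited −log10 p-value and −log10 q-value are the caller's, and the deposited score, a display value, was not used. No listed p-value exceeded 0.00989.

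From these files, overlaps and distances to RefSeq genes of Sscrofa11.1 (26902 on chromosomes 1 to 18) were computed with Python 3.11.15, pandas 2.3.3 and scipy 1.17.1. Coordinates are counted from 1. Fragment and expected numbers at summits were solved from fold and p-value, with a pileup of 1 added in the fold as MACS2 does. The result was whole for 100% of peaks in both lists within 0.0005 in −log10 p, after the low pileup was scaled by 0.881. Expected numbers of the low library are given before that scaling. The solver was checked on simulated data. Shares carry Clopper-Pearson and fragment counts exact Poisson 95% intervals, which were carried to the fold with the expected number held fixed. Without molecular identifiers, PCR copies may inflate these counts, so the intervals cover counting error only.

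The members and lists were chosen with earlier results of these data known. Named by rule were pairs with q under 0.05 in both lists, the 10 with the highest smaller fold, the 8 widest, the 8 largest and 5 smallest fold ratios, the 12 gene-end peaks of highest high fold, listed genes within 10 kb, and genes near 2 shared pairs. Others were named after their values were seen. Motif shares and promoter peaks, which were planned, were not analysed, since no sequence was used. Results at some genes that these rules would name are not reported here.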

Additional observations from a re-analysis of the deposited data

How the results depend on the processing

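No paired analysis was possible because only 1 H4K12la library exists for either group and no result comes from a test. Stricter rules shortened the set by construction: 102 shared peaks were left with each summit inside the other peak, 95 at p of 0.001 or smaller in both lists, 44 at a fold of 3 or more in both and 5 at q under 0.05 in both, against 206. The gene-end share, 31.6%, was 38.9% at that p, 43.2% at that fold and 0% at that q. It was 43.7% with a window of 3 kb, 16.5% with 500 bp and 24.8% with named coding genes only. Median folds (2.86 high, 2.94 low) were 3.10 and 3.22 at that p, and 3.36 and 3.34 at that fold. The low median was 3.68 at that q. At that q the median widths were 320 bp (high) and 307 bp (low), against 404 and 377 bp, and the high fold was the larger in 40.0% of pairs, against 48.8%. The median summit distance, 150 bp, was 118 bp where at least 50% of the shorter peak overlapped, 81 bp with each summit inside the other peak and 6 bp at that q. With genes taken within 50 kb, the AP-1 family had 1 gene with a shared peak and bile acid genes 3 (RXRA, SLC27A5 and SLC51A). Adding chromosomes X and Y gave 207 peaks and left the share, width, fold and distance values within their intervals. Leaving out the 5 pairs of 40 or more fragments, an alternative chosen after the data were seen, left 201 peaks, with those values again within their intervals. Depth limits every comparison between the livers: at 9 fragments the exact interval runs from 4.12 to 17.1.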

Other observations

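Outside the rule, 1 further overlap lay on chromosome Y, at 43257579 to 43258017 in the high list, and 0 on chromosome X. The samples are labelled female. At its summit 2382 fragments stood over 1225 expected in the high liver and 2403 over 1714 expected in the low liver, for folds of 1.94 and 1.40, and the summits were at the same base. The nearest annotated gene, LOC110257930, is 1763034 bp away.

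The widest shared peaks on the high side were at ST6GAL1, a sialyltransferase gene (905 bp, folds of 3.01 and 2.49), near GNG7, a G protein subunit gene (887 bp, 3.84 and 2.90), and at PDLIM2 (861 bp). They were followed by those near PDLIM1 (784 bp, 2.60 and 3.27), at RIN3, a RAB5 activator gene (768 bp, 3.12 and 4.19), near RASL11A (757 bp, 2.89 and 2.87) and at VAPB (743 bp, 3.12 and 2.89). Of the 6 PDLIM genes, 2 had a shared peak within 10 kb, a group picked after the members were seen. In that reach 4 of the 6 had some high-list peak and 3 some low-list peak, against 64.8% and 22.7% of all named coding genes.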
